A study of Mus musculus with 24 samples.

Results

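The Wnt pathway was followed through 54 transcripts of the mouse otocyst epithelium, out of 15736 genes in the count table. Members were the genes whose symbol starts with Wnt, Fzd, Sfrp, Dkk, Rspo or Lgr followed by a digit, together with 17 named receptors, antagonists, transcription factors and feedback genes (Axin1, Axin2, Lef1, Tcf7, Tcf7l1, Tcf7l2, Nkd1, Nkd2, Sp5, Notum, Znrf3, Rnf43, Lrp5, Lrp6, Wif1, Frzb and Apcdd1). They comprised 15 ligands, 12 receptors, 9 secreted or surface antagonists, 9 genes of the R-spondin axis and 9 intracellular factors. Another 7 genes that meet the rule, Wnt1 among them, were not analysed here.

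Wnt proteins are secreted lipid-modified ligands that bind Frizzled receptors and the co-receptors Lrp5 and Lrp6. In the canonical branch this stabilises β-catenin, which enters the nucleus with Tcf and Lef factors and switches on target genes, several of which (Axin2, Nkd1, Notum, Znrf3) feed back to restrain the pathway. R-spondins act through Lgr receptors to protect Frizzleds from the ubiquitin ligases Znrf3 and Rnf43, and so raise a cell's sensitivity to Wnt. In the otocyst, the closed epithelial vesicle from which the whole inner ear forms, Wnt ligands from the dorsal hindbrain and the dorsal otic wall are known for promoting dorsal, vestibular fates.

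The study blocked FGF signalling through FGFR2b ligands. Control embryos (con) were Rosa26rtTA/+, which carry the doxycycline-dependent activator rtTA in the broadly active Rosa26 locus, and experimental embryos (R2b) were Rosa26rtTA/+;Tg(tetO-s(dn)Fgfr2b)/+, which in addition carry a doxycycline-inducible soluble dominant-negative FGFR2b, a secreted trap for the ligands of that receptor. All pregnant females, and so con embryos too, received doxycycline, 1.5 mg/kg by injection and then chow with 200 mg/kg. Exposure began at E9.75 for 12 hours, at E9.25 for 24 hours or at E10.25 for 24 hours (E9.75+12h, here the 12-hour exposure; E9.25+24h, the early 24-hour exposure; E10.25+24h, the late 24-hour exposure). The 12-hour and early 24-hour exposures thus reached the same stage, E10.25, while the late one reached E11.25. Otocyst epithelia of each litter were pooled by genotype, and each pool gave 1 poly(A)-selected stranded library. The number of embryos in a pool is not given in the sources used here. There were 3 con and 3 R2b libraries in the 12-hour exposure, 4 and 4 in the early 24-hour exposure, and 4 and 4 in the late 24-hour exposure, 22 in all, with 18676615 to 28241583 counts each. Levels are counts per 1000000 (CPM) with TMM scaling (trimmed mean of M-values), and values of a group are listed in the order of its litters, 1 to 4. A gene is called, and said to rise or fall, where the edgeR quasi-likelihood test of R2b against con within an exposure gave a Benjamini-Hochberg adjusted p (FDR) under 0.05 over all genes.

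Fgfr2 served as the check of the labels, since transgene reads add to it. It lay between 146 and 159 CPM in con and 729 and 1552 CPM in R2b in the 12-hour exposure, and between 127 and 154 CPM in con and 1325 and 1917 CPM in R2b in the early 24-hour exposure. In the late 24-hour exposure the litters did not separate in this way. The library labelled con of litter 1 had 909 CPM and the library labelled R2b of that litter 323 CPM, against 214 to 413 CPM in the other con and 902 to 1271 CPM in the other R2b libraries. Reads of Ighg1, an immunoglobulin heavy chain gene whose constant part the soluble receptor is fused to, stood at 703 CPM in the library labelled con of litter 1, at 206 CPM in that of litter 3 and at 56.3 CPM in the library labelled R2b of litter 1, where the other R2b libraries of that exposure had 845 to 1186 CPM. Results of the late 24-hour exposure are therefore given with and without litter 1 and with and without litters 1 and 3. Of 12 otic epithelium markers all were in the table, and their sum was 2473 to 8549 CPM over the libraries.

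In both exposures that ended at E10.25 the Wnt genes that were called were mainly higher in R2b. In the 12-hour exposure 15 of 49 tested members were called, 13 higher and 2 lower in R2b. This is 30.6% of the members, where the calls over all 14882 genes tested came to 20.0%, with 10.20% higher and 9.78% lower. In the early 24-hour exposure 15 of 48 were called, again 13 higher and 2 lower, or 31.3%, where 15.6% of all genes were called, 9.09% higher and 6.50% lower. The median log2 fold change of the tested members was 0.19 and 0.21, against 0.01 and -0.01 over all genes. By role, the 12-hour medians were 0.42 for ligands, 0.09 for receptors and 0.44 for antagonists. They were 0.12 for the R-spondin axis and 0.13 for intracellular factors. The early 24-hour medians were 0.65, -0.06, 0.17, 0.08 and 0.001 in that order. There 11 of 12 ligands, 6 of 12 receptors and 6 of 9 antagonists had a positive change. So did 3 of 6 R-spondin axis genes and 5 of 9 intracellular factors. In the late 24-hour exposure 0 of 50 members and 0% of all genes were called, and no member had an unadjusted p under 0.05, against 175 of all 15203 genes tested. DESeq2 called 0 members and 0 of all genes there as well. An unadjusted DESeq2 p under 0.05 was found for 2 members and for 162 of all 15203 genes. Without regard to the test, all R2b libraries lay above all con libraries for 19 members and below for 3 in the 12-hour exposure, where the groups did not overlap for 38.9% of all genes. The counts in the early 24-hour exposure were 14 above and 3 below, with 22.4% of all genes, and in the late 24-hour exposure 0 above and 1 below (Fzd4), with 0.914%. In pooled tissue a change in the number of cells of a type and a change in RNA per cell cannot be told apart.

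**Figure D1:**
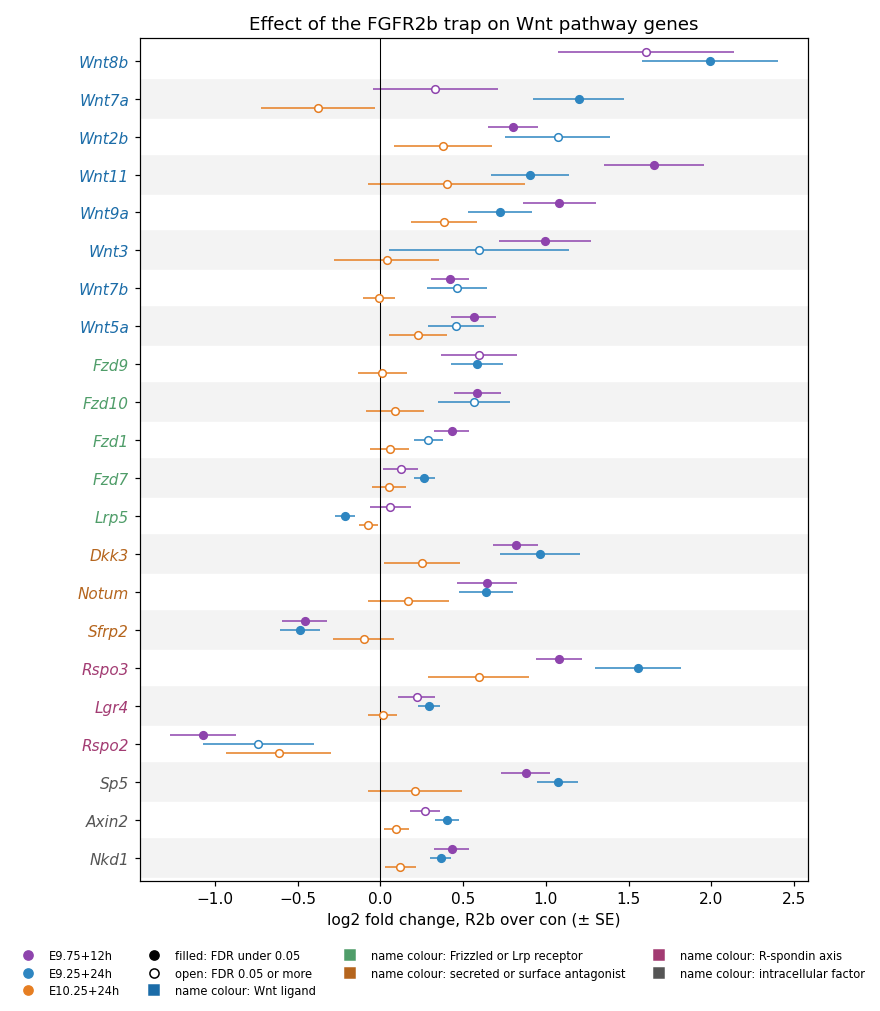
Log2 fold change of R2b over con (x axis, ± SE from the edgeR fit) for the 22 members called at E9.75+12h or E9.25+24h, coloured by exposure and ordered by role; filled points have an FDR under 0.05. Most points of the 2 exposures that ended at E10.25 lie right of 0, with Rspo2 and Sfrp2 on the left in both. Lrp5 is called on the left at E9.25+24h alone, and no point of E10.25+24h is filled.

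Many of these calls were lost when a litter was left out. Without both pools of litter 1 of the 12-hour exposure only Wnt2b, Dkk3 and Rspo3 were called, where the share of all genes called was 2.92%. With the litter as a block Dkk3 was not called there either (edgeR FDR 0.0689). Without litter 1 of the early 24-hour exposure only Axin2, Sp5 and Wnt8b were called, with 2.15% of all genes. Without litter 2 only Sp5 was, with 3.06% of all genes, and without litter 3 there were 7 calls, with 7.42%. Leaving out any of the other litters gave 12 to 18 calls, with 11.8% to 27.1% of all genes. Calls that also reached 1.5-fold numbered 10 and 8 in the 12-hour and early 24-hour exposures, where 10.6% and 6.12% of all genes did. Below, the loss of a call without 1 library is given for each gene. The loss without a litter is given for genes that no single library removed and for Wnt9a and Wnt11. These losses refer to fits without a block unless stated.

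Marker sums of several cell populations also moved with the groups in the 12-hour exposure. The 8 otic neuroblast markers in the table (of 9 listed) summed to 249 to 280 CPM in con and 368 to 432 CPM in R2b. Markers of the surface ectoderm (5 of 8 in the table) summed to 229 to 264 CPM in con and 296 to 318 CPM in R2b, nearly all of it Krt18. The otic epithelium markers themselves summed to 3972 to 4349 CPM in con and 4517 to 5387 CPM in R2b. Hindbrain neural tube markers (4 of 13 in the table) were near 0, at 1.64 to 1.97 CPM in con and 2.27 to 2.59 CPM in R2b. Single markers did not all move with their sum. Of 12 otic epithelium markers 5 were called higher and 2 lower, where 20.0% of all genes were called. Of 8 neuroblast markers 4 were called higher and 0 lower. Of 4 surface ectoderm markers tested 0 were called, with a median log2 fold change of 0.03. The con and R2b ranges of all these sums overlapped in the early 24-hour exposure, where litters differed, but within each litter some moved with the groups. The otic epithelium sum was at 3859, 3987, 3047 and 2473 CPM in con litters 1 to 4 and at 4865, 5642, 3920 and 3555 CPM in R2b, higher in R2b in all 4 litters. The surface ectoderm sum was also higher in R2b in all 4, at 287, 264, 245 and 180.1 CPM in con and 363, 380.0, 354 and 260.1 CPM in R2b. Neither the neuroblast sum nor the hindbrain sum was higher in R2b in every litter. Of 12 otic epithelium markers 3 were called higher and 2 lower in this exposure, where 15.6% of all genes were called. Of 3 surface ectoderm markers tested 1 was called higher. Of 8 neuroblast markers 0 were called, with a median log2 fold change of -0.45. The litter block called 1 of them higher and 3 lower, where it called 40.6% of all genes. Mesenchyme markers (12 of 13 in the table) ranged from 89.2 to 1325 CPM in con and from 98.8 to 1227 CPM in R2b, with litter 4 highest in both. In the early 24-hour exposure Krt18 again made up nearly all of the surface ectoderm sum, at 173 to 277 CPM in con and 245 to 357 CPM in R2b. Perp, an epidermal gene of that list, was at 6.63 to 10.1 CPM in con and 11.2 to 21.8 CPM in R2b. The rest of the list overlapped near 0. Trp63 was at 0.369 to 0.944 CPM in con and 0.141 to 0.682 CPM in R2b. Krt15 was at 0.199 to 0.425 and 0.146 to 0.474 CPM, and Grhl3 at 0.0461 to 0.318 and 0.141 to 0.585 CPM. The part of these sums in the Wnt gene results, with or without the litter as a block, was not tested.

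Control otocysts expressed a broad set of Wnt components. Divided by exon length, 41 of 54 members reached 1 CPM per kb in con in the 12-hour exposure, 41 in the early 24-hour exposure and 46 in the late 24-hour exposure. Sfrp1, a secreted Frizzled-related protein that binds Wnts, had the highest level at each exposure, with 105 ± 4.22 CPM per kb (SD, n = 3) in the 12-hour exposure, 99.9 ± 16.0 CPM per kb (SD, n = 4) in the early 24-hour exposure and 138 ± 12.4 CPM per kb (SD, n = 4) in the late 24-hour exposure. Fzd7 came second each time, with 87.7 ± 1.37, 64.2 ± 4.30 and 73.7 ± 3.08 CPM per kb (SD). Both stood clear of the next gene in every con library. From the third rank down most neighbours overlapped in their ranges. Wnt7b was the highest ligand, at 23.3 ± 3.27, 22.6 ± 5.67 and 42.3 ± 5.36 CPM per kb (SD). Wnt8b, Wnt16 and Lgr6 were among the lowest members, with means of at most 0.106 CPM per kb in each exposure. The number that opens the library titles differed between exposures. A difference of level from one exposure to another cannot be told apart from a difference between these sets of libraries.

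**Figure D2:**
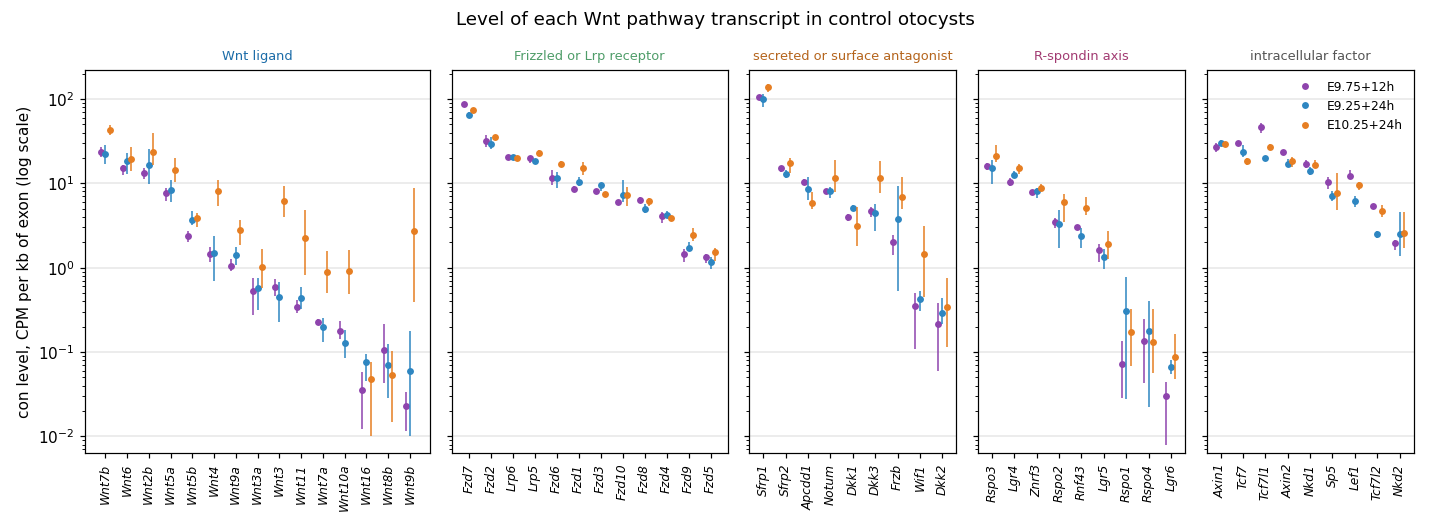
Level in con libraries (y axis, CPM per kb of exon, log scale) of every member by role, with points for the mean and lines for the lowest and highest con library of each exposure (3, 4 and 4 libraries). Sfrp1 and Fzd7 lie highest, and the ligands span the widest range, from Wnt7b down to Wnt8b, Wnt16 and Wnt9b.

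Among the ligands, 6 of 13 tested rose in the 12-hour exposure (Wnt2b, Wnt3, Wnt5a, Wnt7b, Wnt9a and Wnt11) and 4 of 12 in the early 24-hour exposure (Wnt7a, Wnt8b, Wnt9a and Wnt11). None fell. Wnt11, a ligand best known for the β-catenin-independent branch and convergent extension movements, was at 1.71, 1.201 and 1.32 CPM in con and 6.03, 3.56 and 3.76 CPM in R2b in the 12-hour exposure. It was at 1.63, 1.34, 1.75 and 2.44 CPM in con and 4.101, 3.85, 2.804 and 2.699 CPM in R2b in the early 24-hour exposure. The groups did not overlap in either exposure, and every litter had the higher value in R2b. The log2 fold change was 1.65 ± 0.30 (SE; edgeR FDR 0.00432) in the 12-hour exposure and 0.91 ± 0.24 (SE; edgeR FDR 0.0343) in the early 24-hour exposure. Leaving out both pools of litter 1 ended the first call (edgeR FDR 0.0588), and no single library did. The second was lost without con litter 1, 2 or 3 or without R2b litter 1 or 2 (edgeR FDR 0.0723 to 0.105).

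Wnt9a, a canonical ligand, rose in the same exposures, also from a low level. It was at 3.18, 3.003 and 4.22 CPM in con and 7.52, 8.38 and 6.08 CPM in R2b in the 12-hour exposure, with a log2 change of 1.08 ± 0.22 (SE; edgeR FDR 0.00695). The early 24-hour values were 5.89, 5.46, 3.77 and 3.59 CPM in con and 7.82, 8.87, 6.45 and 7.72 CPM in R2b, with a log2 change of 0.72 ± 0.19 (SE; edgeR FDR 0.0372). All R2b libraries lay above all con libraries in both exposures. The 12-hour call was lost without both pools of litter 1 (edgeR FDR 0.114). The call in the early 24-hour exposure was lost without any of con litters 2 to 4 or R2b litters 1, 2 or 4 (edgeR FDR 0.0503 to 0.108).

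Wnt2b, a canonical ligand of the dorsal otic wall, stood at 63.4, 54.8 and 47.9 CPM in con and 86.6, 84.2 and 119 CPM in R2b in the 12-hour exposure, without overlap, and its log2 fold change was 0.80 ± 0.15 (SE; edgeR FDR 0.00468). Without a block, no single library and no litter removed that call. With the litter as a block, leaving out litter 3 did (edgeR FDR 0.0607). In the early 24-hour exposure it stood at 106, 77.97, 41.1 and 50.1 CPM in con and 181, 186, 97.4 and 113 CPM in R2b, so that con litter 1 overlapped with R2b litter 3 although R2b was the higher pool of each litter. The log2 fold change was 1.07 ± 0.32 (SE; edgeR FDR 0.0517) without the litter in the model and 1.102 ± 0.07 (SE; edgeR FDR 3.45e-06) with the litter as a block.

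Wnt5a, the main ligand of Ror receptors, was at 62.98, 48.2 and 68.5 CPM in con and 84.6, 98.3 and 82.5 CPM in R2b in the 12-hour exposure and did not overlap. Its log2 fold change was 0.56 ± 0.13 (SE; edgeR FDR 0.015), and the call was lost without con litter 2 (edgeR FDR 0.0531). Wnt7b, a canonical ligand in many epithelia, was at 109, 101 and 132 CPM in con and 167, 141 and 150.0 CPM in R2b in that exposure, again without overlap. Its log2 fold change was 0.42 ± 0.12 (SE; edgeR FDR 0.0273), and the call was lost without con litter 1 or 2 or R2b litter 1 or 3 (edgeR FDR 0.0614 to 0.125). Both had R2b above con in every litter in the early 24-hour exposure too. There the groups overlapped and the log2 fold changes of 0.46 and 0.46 were not called (edgeR FDR 0.0946 and 0.116), while with the litter as a block they were (edgeR FDR 0.000308 and 0.000142).

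Some ligands that moved were close to the limit of detection. Wnt8b, a ligand known from the dorsal neural tube, had 2 to 9 counts per con library and 17 to 33 counts per R2b library in the early 24-hour exposure, or 0.431, 0.0993, 0.212 and 0.2304 CPM in con and 0.848, 0.828, 1.47 and 0.805 CPM in R2b. Those groups did not overlap, and the log2 fold change was 1.99 ± 0.41 (SE; edgeR FDR 0.0157). No single library removed the call, while leaving out both pools of litter 2 or 3 did (edgeR FDR 0.073 and 0.0692). In the 12-hour exposure it was at 0.151, 0.218 and 0.738 CPM in con and 1.32, 1.096 and 0.979 CPM in R2b, also without overlap, and the log2 change of 1.61 ± 0.53 (SE) was not called (edgeR FDR 0.0536), but was called without con litter 3 (edgeR FDR 0.0104). Wnt7a, a ligand of epithelia and neural tissue, was at 0.814, 0.546, 0.743 and 0.415 CPM in con and 1.23, 1.41, 1.91 and 1.23 CPM in R2b in the early 24-hour exposure, with a log2 change of 1.197 ± 0.28 (SE; edgeR FDR 0.0225). R2b did not overlap with con, and the call was lost without con litter 2 or R2b litter 1, 2 or 3 (edgeR FDR 0.0522 to 0.0628). In the 12-hour exposure Wnt7a was at 0.656, 0.7099 and 0.791 CPM in con and 0.6796, 1.06 and 0.979 CPM in R2b, and its groups overlapped (edgeR FDR 0.568).

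Wnt3, a canonical ligand, was at 2.27, 1.42 and 1.69 CPM in con and 3.48, 3.13 and 4.18 CPM in R2b in the 12-hour exposure without overlap, with a log2 change of 0.997 ± 0.28 (SE; edgeR FDR 0.0287). The call was lost with the litter as a block (edgeR FDR 0.0648), and without con litter 2 or 3 or R2b litter 1 or 3 (edgeR FDR 0.0706 to 0.105). Its early 24-hour values of 2.06, 2.04, 0.796 and 0.691 CPM in con and 2.83, 3.704, 0.979 and 0.947 CPM in R2b overlapped (edgeR FDR 0.493), although R2b was the higher pool of each litter, and the block called it (0.56 ± 0.20 (SE), edgeR FDR 0.0443). Wnt3a, the canonical ligand of the dorsal hindbrain, was at 0.756, 1.58 and 2.06 CPM in con and 1.44, 1.49 and 0.464 CPM in R2b in the 12-hour exposure and at 1.77, 1.54, 2.07 and 0.875 CPM in con and 2.45, 1.85, 3.16 and 1.66 CPM in R2b in the early 24-hour exposure. Its groups overlapped in both exposures and it was not called (log2 fold change -0.35 and 0.55, edgeR FDR 0.644 and 0.251). In the early 24-hour exposure R2b was the higher pool of each litter, and with the block Wnt3a was called (0.55 ± 0.19 (SE), edgeR FDR 0.0388). The remaining ligands, Wnt4, Wnt5b, Wnt6, Wnt9b, Wnt10a and Wnt16, were not called in any exposure without a block. Wnt9b and Wnt16 were too low for the test in the 12-hour and early 24-hour exposures, and Wnt10a was too low in the early 24-hour exposure.

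Of the 12 receptors and co-receptors tested, Fzd1 and Fzd10 rose in the 12-hour exposure, and Fzd7 and Fzd9 rose and Lrp5 fell in the early 24-hour exposure. Fzd1, a Frizzled that couples to both Wnt branches, was at 34.8, 34.6 and 38.7 CPM in con and 51.6, 46.5 and 47.7 CPM in R2b in the 12-hour exposure, with a log2 change of 0.43 ± 0.11 (SE; edgeR FDR 0.017). Those groups did not overlap, and the call was lost with the litter as a block (edgeR FDR 0.0575) and without con litter 1 or 2 or R2b litter 1 (edgeR FDR 0.0697 to 0.0844). Fzd10 was at 20.3, 19.8 and 17.8 CPM in con and 32.6, 24.00 and 30.4 CPM in R2b in that exposure, again apart, with a log2 change of 0.59 ± 0.14 (SE; edgeR FDR 0.0161). That call was lost without con litter 1 or 3 or R2b litter 1 or 3 (edgeR FDR 0.0504 to 0.0862).

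Fzd10 in the early 24-hour exposure stood at 19.3, 19.4, 20.1 and 35.9 CPM in con and 31.4, 32.6, 32.5 and 43.8 CPM in R2b. Both pools of litter 4 stood above the other pools of their group, so that con litter 4 overlapped with R2b litters 1 to 3, and the edgeR FDR was 0.106 with litter 4 of con and 0.0058 without it. Fzd7, the most abundant Frizzled, was at 293, 273, 317 and 281 CPM in con and 322, 343, 371 and 364 CPM in R2b in that exposure, with a log2 change of 0.27 ± 0.06 (SE; edgeR FDR 0.0249). Its groups did not overlap, although the change was small, and 5 of 8 fits that left out 1 library lost the call (con litters 1, 2 and 4, R2b litters 2 and 3; edgeR FDR 0.0506 to 0.0624). Fzd9 was at 3.78, 3.68, 3.87 and 4.56 CPM in con and 4.85, 5.75, 7.299 and 5.92 CPM in R2b there, without overlap, with a log2 change of 0.58 ± 0.16 (SE; edgeR FDR 0.038), and of 8 fits that left out 1 library only that without con litter 4 kept the call (edgeR FDR 0.0512 to 0.0888 in the others).

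Lrp5 and Lrp6, the co-receptors of the canonical branch, were slightly lower in R2b in the early 24-hour exposure. Lrp5 was at 186, 191, 178 and 163 CPM in con and 160.2, 163, 143 and 153 CPM in R2b, lower in R2b in each litter, while con litter 4 lay just under R2b litter 2. The log2 fold change was -0.21 ± 0.06 (SE; edgeR FDR 0.049), and 7 of 8 fits that left out 1 library lost the call, all but that without con litter 4 (edgeR FDR up to 0.126). Lrp6 was at 278, 299.9, 272 and 264 CPM in con and 245, 255, 237 and 255 CPM in R2b, without overlap, and was not called (log2 fold change -0.17 ± 0.05 (SE), edgeR FDR 0.0512). Fzd2, Fzd3, Fzd4, Fzd5, Fzd6 and Fzd8 were not called in any exposure without a block, with log2 fold changes between -0.28 and 0.19.

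Of the 9 antagonists, Dkk3 and Notum rose and Sfrp2 fell in both exposures that ended at E10.25. Dkk3, a secreted member of the Dickkopf family, was at 17.5, 13.5 and 16.2 CPM in con and 27.1, 27.3 and 29.02 CPM in R2b in the 12-hour exposure and at 19.2, 16.6, 9.13 and 15.02 CPM in con and 32.1, 37.9, 20.7 and 26.5 CPM in R2b in the early 24-hour exposure. All R2b libraries lay above all con libraries in both. Its log2 fold change was 0.82 ± 0.14 (SE; edgeR FDR 0.00264) and 0.96 ± 0.24 (SE; edgeR FDR 0.0307). The second call was lost without con litter 2 or 4 or R2b litter 1 or 2 (edgeR FDR 0.0518 to 0.0906).

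Notum, a secreted enzyme that removes the lipid from Wnt proteins and is itself a Wnt target, was at 17.8, 19.8 and 20.8 CPM in con and 34.1, 21.5 and 35.7 CPM in R2b in the 12-hour exposure and at 18.00, 21.5, 21.3 and 16.3 CPM in con and 37.1, 32.1, 29.2 and 21.7 CPM in R2b in the early 24-hour exposure. Con and R2b were apart in both exposures, by a narrow margin between con litter 3 and R2b litter 2 in the first and between con litter 2 and R2b litter 4 in the second. Its log2 fold change was 0.64 ± 0.18 (SE; edgeR FDR 0.03) and 0.64 ± 0.16 (SE; edgeR FDR 0.0318). With the litter as a block the first call was lost (edgeR FDR 0.063). It was also lost without any 1 library other than R2b litter 2 (edgeR FDR 0.0505 to 0.126), and the second without any 1 library other than con litter 2 or R2b litter 4 (edgeR FDR 0.0517 to 0.0916).

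Sfrp2, which like Sfrp1 binds Wnts outside the cell, went the other way. It was at 33.9, 29.4 and 33.8 CPM in con and 24.5, 19.8 and 26.5 CPM in R2b in the 12-hour exposure and at 26.6, 25.03, 30.9 and 28.8 CPM in con and 19.9, 15.8, 20.7 and 23.02 CPM in R2b in the early 24-hour exposure. All R2b libraries lay below all con libraries in both exposures. Its log2 fold change was -0.46 ± 0.14 (SE; edgeR FDR 0.0374) and -0.49 ± 0.12 (SE; edgeR FDR 0.0284). The first call was lost with the litter as a block (edgeR FDR 0.0589) and without any con library or R2b litter 1 (edgeR FDR 0.0597 to 0.122), and the second without con litter 1, 3 or 4 or R2b litter 1 or 2 (edgeR FDR 0.0512 to 0.0789). Sfrp1, the most abundant member, was at 489.9, 497, 349.8 and 411 CPM in con and 488, 540.0, 359.8 and 483 CPM in R2b in the early 24-hour exposure and was not called (edgeR FDR 0.68). Dkk1, Dkk2, Frzb, Wif1 and Apcdd1 were not called in any exposure without a block.

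The R-spondin genes moved in opposite directions. Rspo3, a secreted amplifier of Wnt signalling (chromosome 10, 29452416 to 29535867, minus strand, GRCm38), had the smallest FDR of all members in the 12-hour exposure. It was at 49.9, 44.1 and 54.1 CPM in con and 92.8, 127 and 92.5 CPM in R2b in the 12-hour exposure. It was at 58.8, 56.8, 29.99 and 43.1 CPM in con and 166, 179, 89.1 and 121 CPM in R2b in the early 24-hour exposure. The lowest R2b library was above the highest con library in each exposure. The log2 fold change was 1.08 ± 0.14 (SE; edgeR FDR 0.000886) and 1.56 ± 0.26 (SE; edgeR FDR 0.0076). Over the 4 litters of the early 24-hour exposure both con and R2b were lowest in litters 3 and 4, and the litter block gave 1.55 ± 0.04 (SE; edgeR FDR 1.09e-08). No single library removed either call, but leaving out both pools of litter 1 or litter 2 in the early 24-hour exposure did (edgeR FDR 0.0573 and 0.0547).

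Rspo2, a second R-spondin, was at 19.9, 17.7 and 15.2 CPM in con and 6.24, 8.42 and 10.5 CPM in R2b in the 12-hour exposure. Every R2b library was below every con library, and its log2 fold change was -1.07 ± 0.20 (SE; edgeR FDR 0.00468). No single library removed this call, but leaving out both pools of litter 1 did (edgeR FDR 0.094). In the early 24-hour exposure it was at 24.9, 21.7, 8.76 and 11.4 CPM in con and 11.6, 12.8, 7.699 and 7.91 CPM in R2b, lower in R2b in every litter but with litters 3 and 4 below litters 1 and 2 in both groups. The log2 change of -0.74 ± 0.34 (SE) was not called without the block (edgeR FDR 0.165) and was called with it (-0.68 ± 0.13 (SE), edgeR FDR 0.0022).

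Lgr4, the widespread R-spondin receptor, was at 70.9, 71.5, 82.7 and 68.7 CPM in con and 88.2, 89.4, 97.2 and 85.2 CPM in R2b in the early 24-hour exposure, without overlap, and rose by 0.29 ± 0.07 on the log2 scale (SE; edgeR FDR 0.0231). The call was lost without con litter 1 or R2b litter 1, 2 or 3 (edgeR FDR 0.0528 to 0.065). Lgr5, a receptor that is also a Wnt target in stem cells, was at 13.6, 13.8, 17.3 and 9.77 CPM in con and 9.62, 10.5, 10.7 and 8.903 CPM in R2b in that exposure. Con litter 4 overlapped with R2b, and the log2 change of -0.45 ± 0.16 (SE) was not called (edgeR FDR 0.0907), while it was with the block (edgeR FDR 0.00614) or without con litter 4 (edgeR FDR 0.02). In the 12-hour exposure Lgr5 was at 12.1, 19.4 and 18.2 CPM in con and 14.8, 19.03 and 14.02 CPM in R2b and overlapped (edgeR FDR 0.875). The ligases Znrf3 and Rnf43 were not called in any exposure, with log2 fold changes between -0.005 and 0.17. Rspo1, Rspo4 and Lgr6 had at most 1.56 CPM in the 12-hour and early 24-hour exposures and were not tested there.

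**Figure D3:**
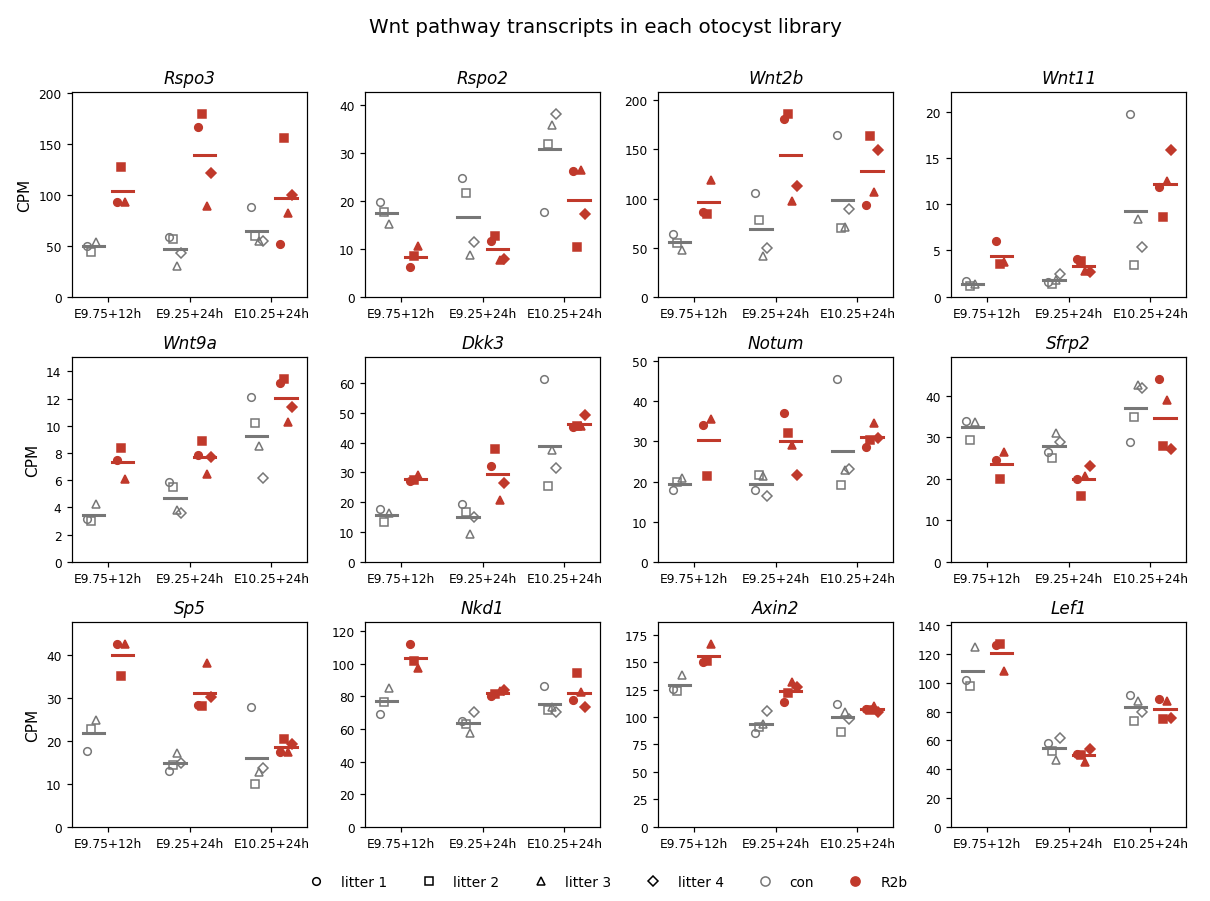
CPM (y axis, from 0) of 12 members in every library, with open grey symbols for con, filled red symbols for R2b, a symbol shape for each litter and a line at the group mean. Con and R2b are apart for Rspo3, Sp5, Dkk3, Wnt11, Wnt9a, Notum, Sfrp2, Nkd1 and Axin2 in both exposures that ended at E10.25. They overlap for each of the 12 at E10.25+24h.

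Among the intracellular factors, the target gene Sp5 and the feedback gene Nkd1 rose in both exposures that ended at E10.25, Axin2 rose in the early 24-hour one, and the Tcf and Lef factors were not called. Sp5, a zinc-finger factor that is a direct Wnt target in several tissues (chromosome 2, 70474923 to 70477729, plus strand), was at 17.7, 22.7 and 24.98 CPM in con and 42.6, 35.1 and 42.5 CPM in R2b in the 12-hour exposure. It was at 13.1, 14.4, 17.1 and 14.9 CPM in con and 28.5, 28.1, 38.3 and 30.2 CPM in R2b in the early 24-hour exposure. The groups did not overlap in either exposure, and R2b was the higher pool of every litter. The log2 fold change was 0.88 ± 0.15 (SE; edgeR FDR 0.00269) and 1.07 ± 0.12 (SE; edgeR FDR 0.00157). No single library removed either call, and in the early 24-hour exposure no litter did (edgeR FDR up to 0.0262), whereas in the 12-hour exposure leaving out litter 1 did (edgeR FDR 0.0714).

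Nkd1, an inhibitor that binds Dishevelled and is induced by Wnt, was at 69.3, 76.4 and 85.3 CPM in con and 112, 102 and 97.7 CPM in R2b in the 12-hour exposure and at 64.97, 62.97, 57.3 and 70.6 CPM in con and 80.4, 81.4, 83.5 and 84.2 CPM in R2b in the early 24-hour exposure. R2b lay above con without overlap in both. Its log2 fold change was 0.43 ± 0.11 (SE; edgeR FDR 0.0174) and 0.36 ± 0.06 (SE; edgeR FDR 0.00833). The first call was lost with the block (edgeR FDR 0.058) and without con litter 1 or 2 or R2b litter 1 (edgeR FDR 0.0608 to 0.0882), while no single library removed the second but leaving out both pools of litter 1 or litter 2 did (edgeR FDR 0.0709 and 0.0702). Axin2, a scaffold of the β-catenin destruction complex and the most widely used transcript readout of canonical signalling, was at 126, 124 and 138 CPM in con and 150.3, 151 and 166 CPM in R2b in the 12-hour exposure and at 85.1, 90.6, 93.8 and 106 CPM in con and 114, 122, 132 and 127 CPM in R2b in the early 24-hour exposure. Its groups were also apart in both exposures. Its log2 change of 0.27 ± 0.09 (SE) was not called in the 12-hour exposure (edgeR FDR 0.0613) except without R2b litter 2 (edgeR FDR 0.0304). It rose in the early 24-hour exposure by 0.40 ± 0.07 (SE; edgeR FDR 0.0105), a call that no single library removed but the loss of both pools of litter 2 or 3 did (edgeR FDR 0.0691 and 0.0514).

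Lef1, a partner of β-catenin that is often induced by Wnt, was at 102, 97.6 and 125 CPM in con and 127, 127 and 108 CPM in R2b in the 12-hour exposure and at 58.4, 52.4, 46.3 and 61.6 CPM in con and 50.5, 50.1, 44.7 and 54.2 CPM in R2b in the early 24-hour exposure. The groups overlapped, and the log2 fold changes of 0.16 and -0.13 were not called (edgeR FDR 0.364 and 0.379). With the block Lef1 was called lower in the early 24-hour exposure (edgeR FDR 0.0452). Tcf7, the T-cell factor that usually activates targets, was at 56.3, 60.6, 75.1 and 54.5 CPM in con and 48.4, 48.3, 57.9 and 42.95 CPM in R2b in the early 24-hour exposure, lower in R2b in every litter, and was not called (log2 fold change -0.32, edgeR FDR 0.102), while with the block it was (edgeR FDR 0.000313). Tcf7l1, Tcf7l2, Axin1 and Nkd2 were not called in any exposure.

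Of the feedback and target genes that were higher in R2b, the promoters of Sp5, Axin2 and Nkd1 are printed, and Notum had no entry among the RefSeq windows. The stretches are shown for the letters that Tcf and Lef factors bind. Each sequence is the 250 bases before the RefSeq start site, 5′ to 3′ on the plus strand of GRCm38.p6, in lower case, with the letters CTTTGA or CTTTGT, or their reverse complements TCAAAG and ACAAAG, in capitals. They lie at chr2:70474673-70474922 (Sp5), chr11:108920099-108920348 (Axin2) and chr8:88527383-88527632 (Nkd1, whose RefSeq start lies inside the longer GENCODE gene).
Sp5: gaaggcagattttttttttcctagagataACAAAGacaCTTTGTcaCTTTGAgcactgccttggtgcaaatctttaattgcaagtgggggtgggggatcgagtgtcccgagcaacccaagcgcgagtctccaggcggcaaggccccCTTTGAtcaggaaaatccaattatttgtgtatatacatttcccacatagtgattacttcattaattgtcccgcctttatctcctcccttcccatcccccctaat
Axin2: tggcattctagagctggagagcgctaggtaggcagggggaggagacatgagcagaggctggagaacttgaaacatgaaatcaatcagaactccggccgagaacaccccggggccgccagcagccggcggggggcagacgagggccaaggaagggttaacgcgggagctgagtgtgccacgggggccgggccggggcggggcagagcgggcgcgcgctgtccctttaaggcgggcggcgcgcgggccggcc
Nkd1: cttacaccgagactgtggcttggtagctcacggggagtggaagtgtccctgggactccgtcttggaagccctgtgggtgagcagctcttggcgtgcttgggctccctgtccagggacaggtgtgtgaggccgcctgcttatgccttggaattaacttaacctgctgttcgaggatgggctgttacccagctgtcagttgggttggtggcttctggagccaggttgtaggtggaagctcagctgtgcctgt
The Sp5 stretch held 4 matches, which begin at -221, -212, -204 and -104 from the start site and do not overlap, and the window that extends 50 bases past the start held 5. Among all 32851 windows of that length in RefSeq, 12 (0.0365%) held 5 or more. The Axin2 and Nkd1 windows held none of these letters. At least 1 match was found in 13 of 45 windows of the 36 members with an entry (28.9%), against 31.2% of all windows. A match describes the letters alone.

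The 2 exposures that ended at E10.25 shared 8 called members, all in the same direction: Wnt9a, Wnt11, Dkk3, Notum, Rspo3, Sp5 and Nkd1 higher, and Sfrp2 lower. These are 53.3% of the members called in each exposure, where the 1295 genes called in both were 43.6% and 55.5% of all genes called. All 1295 of those genes also had the same direction in both, so the shared direction is not particular to the members. The sign was the same in both for 39 of 48 members tested (81.3%), against 76.9% of all genes. For the members called in 1 exposure alone, the difference itself was not called. In the test of the difference (early 24-hour minus 12-hour exposure) 0 of 53 members and 0% of all genes were called, and 2 members had an unadjusted p under 0.05 (lowest edgeR FDR 0.249) where 12.2% of all genes did. Those were Fzd8, with a difference of -0.33 ± 0.14 (SE, log2), and the barely detected Lgr6, with -2.21 ± 0.69 (SE, log2), both named after their values were seen. DESeq2 called 0 members and 76 of all genes in this test.

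With the litter as a block, 10 of 49 members were called in the 12-hour exposure, 9 higher and 1 lower, where 11.9% of all genes were. The early 24-hour count under the block was 34 of 48, 25 higher and 9 lower, where 40.6% of all genes were. The block raised the ligand count at that exposure to 11 of 12, all higher in R2b: besides those above, Wnt4 and Wnt6 had log2 fold changes of 0.78 ± 0.16 and 0.22 ± 0.06 (SE; edgeR FDR 0.00304 and 0.0108). Wnt5b, at 9.57, 8.39, 8.86 and 12.3 CPM in con and 7.49, 8.09, 9.12 and 9.28 CPM in R2b, was the 1 tested ligand without a call (edgeR FDR 0.165). Wnt3 and Wnt3a were among the 11. Other members that gained a call with a higher value were Fzd1, Fzd3, Fzd10, Dkk2 and Apcdd1. Members lower in R2b under the block were Fzd2, Lrp5, Lrp6, Dkk1, Sfrp2, Lgr5, Rspo2, Lef1 and Tcf7.

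In the late 24-hour exposure the values of the same genes depended on the litter. Rspo3 had 87.7, 59.95, 54.7 and 54.8 CPM in its con-labelled and 51.6, 156, 81.7 and 99.3 CPM in its R2b-labelled libraries, and the genes after it are given in the same order. R2b was the higher pool in litters 2 to 4 and the lower one in litter 1. Sp5 was at 28.01, 10.03, 12.9 and 13.6 CPM and 17.4, 20.5, 17.4 and 19.4 CPM, with the same order. Wnt11 was at 19.8, 3.38, 8.42 and 5.35 CPM and 11.9, 8.59, 12.5 and 15.8 CPM, again with litter 1 reversed. Rspo2 was at 17.8, 31.8, 35.9 and 38.2 CPM and 26.2, 10.5, 26.5 and 17.3 CPM, lower in R2b in litters 2 to 4 and higher in litter 1. Axin2 was at 112, 86.3, 104 and 97.9 CPM and 107, 106, 110.2 and 105 CPM. Nkd1 was at 86.6, 71.7, 73.4 and 70.3 CPM and 77.7, 94.6, 82.7 and 73.4 CPM. Both were higher in R2b in litters 2 to 4 and lower in litter 1. The con and R2b ranges of each of these genes overlapped, and the log2 fold changes over all 4 litters were 0.59 ± 0.30 for Rspo3, 0.21 ± 0.28 for Sp5 and -0.62 ± 0.32 for Rspo2 (SE; edgeR FDR 1 for each).

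Of the 8 members called in both other exposures, 1 moved within litter 1 as it had been called, and 8 did in each of litters 2, 3 and 4. The median of their log2 ratios, signed by the call, was -0.64 in litter 1 and 0.75, 0.36 and 0.63 in litters 2 to 4. For the 22 members called in either exposure the counts were 3, 20, 19 and 22. The matching counts over all genes called in those exposures are not given here. The litter pattern is therefore not shown to be particular to the Wnt members. Without litter 1 the unblocked edgeR comparison called 0 of 50 members and 0% of all genes, with 13 members (and 16.0% of all genes) at an unadjusted p under 0.05. With the block and without litter 1, 9 of 50 members were called, where 4.04% of all genes were: Wnt2b (log2 fold change 0.86 ± 0.12), Wnt5a (0.44 ± 0.08), Wnt11 (1.14 ± 0.20), Apcdd1 (0.45 ± 0.07), Dkk3 (0.58 ± 0.11), Notum (0.56 ± 0.08), Rspo3 (0.95 ± 0.14) and Sp5 (0.66 ± 0.13) higher, and Rspo2 (-1.02 ± 0.20) lower (all ± SE; edgeR FDR 0.024 to 0.0469). Without litters 1 and 3 the unblocked comparison called 0 of 49 members and 0.0329% of all genes, with 15 members (and 11.1% of all genes) at an unadjusted p under 0.05. The block called 11 of 49, where 5.77% of all genes were: the same 9, with Rspo3 at 1.13 ± 0.12 and Rspo2 at -1.35 ± 0.13 (SE), and in addition Dkk2 higher and Wnt6 lower. That last fit rests on 2 litters. Wnt6, a ligand of the surface ectoderm, was at 42.4, 58.8, 30.5 and 40.2 CPM in con and 51.96, 25.1, 37.03 and 27.3 CPM in R2b. Trp63, a defining gene of the surface ectoderm, stood at 51.8 and 35.3 CPM in con litters 2 and 3 and at 28.1 CPM in the library labelled R2b of litter 1, against 0.423 to 1.39 CPM in the other 5 libraries. Its part in the Wnt6 value was not tested.

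**Figure D4:**
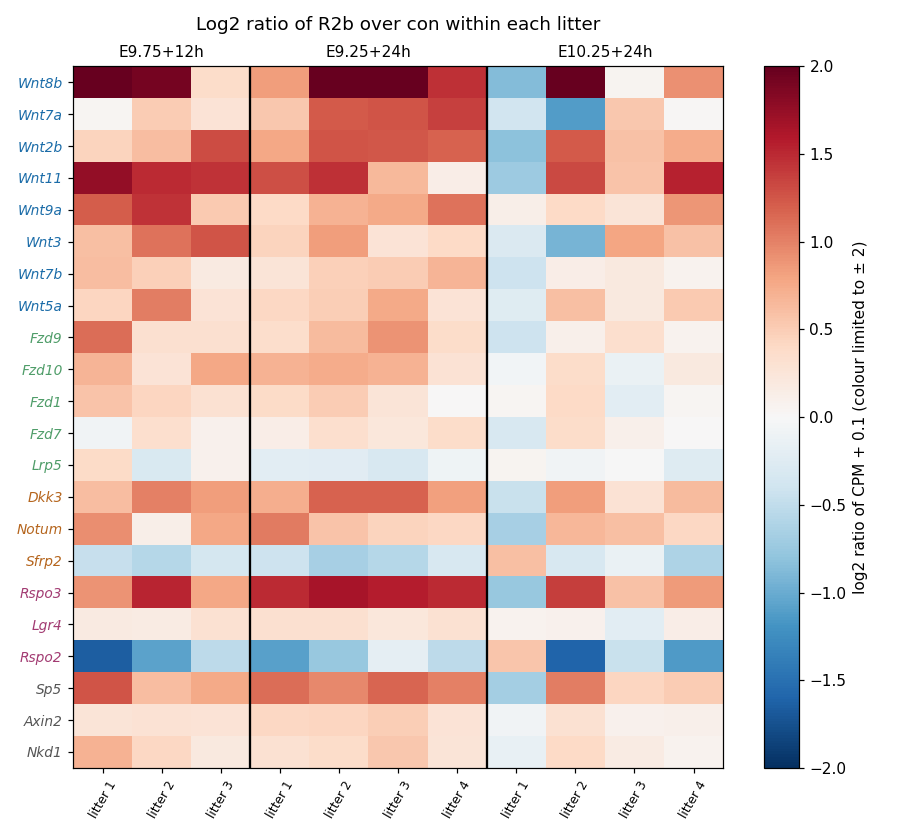
Log2 ratio of R2b over con within each litter (CPM + 0.1; red higher, blue lower, colour limited to ± 2) for the 22 members called at E9.75+12h or E9.25+24h. Litter 1 of E10.25+24h has 3 of 22 members in the direction of the call, and litters 2 to 4 have 20, 19 and 22. The matching counts over all genes are not given.

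The difference of effects between the exposures of 24 hours (late minus early) was called for 0 of 53 members and 0% of all genes. An unadjusted p under 0.05 was found for 9 members, all with the smaller or more negative value in the late 24-hour exposure (lowest edgeR FDR 0.247). It was found for 8.57% of all genes. Of those 1344 genes, 947 also had a negative difference and 397 a positive one. The 9 members included Sp5, with a difference of -0.86 ± 0.30 (SE, log2), Rspo3, with -0.96 ± 0.39 (SE, log2), and Axin2, with -0.31 ± 0.11 (SE, log2). DESeq2 called 0 members and 74 of all genes. Litter 1 of the late 24-hour exposure enters these values. The effects of the early 24-hour exposure enter both tests of a difference.

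Other genes of the pathway are read against the shares of all genes called, 20.0% in the 12-hour and 15.6% in the early 24-hour exposure, or 11.9% and 40.6% with the litter as a block. Of 34 genes of the core machinery, from Wnt secretion to the β-catenin destruction complex and its nuclear co-factors, 4 rose in the 12-hour exposure (Apc2, Porcn, Bcl9l and Dvl3), while 1 rose (Wls) and 1 fell (Amer1) in the early 24-hour exposure. Those 11.8% and 5.88% lie below the shares over all genes, and the medians of the log2 fold changes were 0.05 and -0.06. The block lost Porcn and Dvl3 (edgeR FDR 0.0888 and 0.0957), and in the early 24-hour exposure it called 2 core genes higher and 6 lower (23.5%). Wls, the carrier that brings Wnt proteins to the cell surface, went from 203 ± 9.29 to 294 ± 20.7 CPM in the early 24-hour exposure (SD, n = 4), 0.53 ± 0.06 on the log2 scale (SE; edgeR FDR 0.00136), and was not called in the 12-hour exposure.

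Of 19 planar polarity genes and other Wnt receptors, 6 rose in the 12-hour exposure (31.6%) and 4 in the early 24-hour exposure (21.1%), with medians of 0.23 and 0.11. With the block 4 were higher in the first, and 8 higher and 2 lower in the second. Vangl1 and Ptk7 were called in both exposures, Vangl1 in the 12-hour exposure without the block alone (edgeR FDR 0.0599 with it). Vangl1, a core planar polarity protein, went from 16.0 ± 0.263 to 22.6 ± 0.455 CPM (SD, n = 3) and from 14.2 ± 2.19 to 20.5 ± 1.06 CPM (SD, n = 4). Ptk7, a Wnt co-receptor, went from 217 ± 17.4 to 337 ± 67.5 CPM (SD, n = 3) and from 316 ± 21.9 to 411 ± 12.7 CPM (SD, n = 4).

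Of 16 other extracellular modulators tested in the 12-hour exposure 4 rose and 1 fell (31.3%), and of 15 in the early 24-hour exposure 5 rose (33.3%), with medians of 0.23 and 0.17. With the block 2 were higher and 1 lower, and 8 higher and 1 lower. Sostdc1, a secreted protein that binds Lrp5 and Lrp6, rose in both, from 9.74 ± 2.30 to 19.4 ± 4.04 CPM (SD, n = 3; log2 fold change 0.99, edgeR FDR 0.00726) and from 5.59 ± 1.15 to 16.4 ± 1.73 CPM (SD, n = 4; log2 fold change 1.55, edgeR FDR 0.00103). The glypican Gpc4 and the Wnt inhibitor Tpbg also rose in both, Tpbg in the 12-hour exposure without the block alone (edgeR FDR 0.0818 with it).

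Of 17 genes known to follow Wnt signalling in other tissues, 5 rose and 1 fell in the 12-hour exposure (35.3%), and 5 rose and 3 fell in the early 24-hour exposure (47.1%), with medians of 0.23 and 0.16. The block called 4 higher and 1 lower, and 7 higher and 4 lower. The rises were Msx1, Msx2, Jag1, Nrcam and Ephb2 in both exposures, of which Nrcam lost its 12-hour call with the block (edgeR FDR 0.0727). Ccnd1, which encodes the G1 regulator cyclin D1, fell from 1170.3 ± 18.6 to 788 ± 88.6 CPM (SD, n = 3) and from 1205 ± 89.2 to 828 ± 17.9 CPM (SD, n = 4). Of 12 dorsal otic genes, 5 rose and 1 fell in the 12-hour exposure, and 3 rose and 4 fell in the early 24-hour exposure (58.3%), where the block called 7 higher and 4 lower. Lmx1a, Msx1 and Msx2 rose and Meis2 fell in both. Msx1, Msx2 and Bmp4 belong to this list and to that of genes known to follow Wnt signalling, so these lists are not separate results. None of these lists had a call in the late 24-hour exposure.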

How the data were processed

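The values the authors deposited are whole-number read counts for each gene, without normalisation as far as the values show. Per the submitters' processing notes, Novoalign 2.08.03 and the build mm10 were used; the counting tool, annotation and any filter are not given in the sources used here. Per the labels' protocols, the kit was stranded with oligo(dT) selection. Symbols, positions and exon lengths came from GENCODE M21 (GRCm38), with 15522 of 15736 genes matched and 214 not. Of 24 samples 22 had a column, and 2 columns that name no sample were not used, which leaves 3 litters in the 12-hour exposure.

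A litter is a pregnant female, and the labels state that each gave both pools. Without a block, p-values measure the spread between pools of one genotype from different litters and leave out the pairing. With the litter as a block, they measure the spread over litters of the difference between R2b and con. Same-litter correlations of deviations from the group means were -0.116, -0.237 and -0.255 in the 12-hour exposure, 0.424, 0.495, 0.766 and 0.749 in the early 24-hour exposure, and -0.114, 0.387, 0.309 and 0.295 in the late 24-hour exposure.

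Each exposure was fitted alone in edgeR 4.0.16 (R 4.3.3) (filterByExpr filter; TMM; estimateDisp; glmQLFit; glmQLFTest), with 2 group means and Benjamini-Hochberg adjustment over all genes tested. SEs were derived from the F statistic. Differences of effects were contrasts of 6 group means in all 22 libraries. CPM values were computed here, and litter ratios used a pseudocount of 0.1 CPM. The fits were tested on simulated data.

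Members called in the 12-hour or early 24-hour exposure are given in full, with Axin2, Lef1, Sp5, Lgr5 and Wnt3a in any case; list genes are named where called in both, at most 6 per list. The members, the lists and these rules were chosen with earlier results of these data known. Blood and endothelium markers were also summed: in the early 24-hour exposure blood ranged from 9.61 to 1601 CPM and endothelium from 16.4 to 319 CPM, and blood reached 5110.2 CPM in an R2b library of the late 24-hour exposure. The alternatives were DESeq2 1.42.0, median-of-ratios size factors, no filter, a floor of 1 on the mean CPM, a replicate block for the litter, robust dispersion, 1 fit for all libraries, the compared exposures alone, a fold change of at least 1.5, and each library or litter left out. Leaving out litters 1 and 3 of the late 24-hour exposure was chosen after seeing the data.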

Additional observations from a re-analysis of the deposited data

Results flagged for a closer look

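In 14 of 190 groups of 4 libraries, 1 library stood apart from the other 3 by more than Dixon's criterion allows; chance alone flags about 1 group in 20. In the early 24-hour exposure, Fzd10 was high in litter 4 of both con (35.9 CPM, others 19.3 to 20.1) and R2b (43.8 CPM, others 31.4 to 32.6). Fzd2 (112 CPM, others 79.6 to 83.8) and Tcf7l2 (27.3 CPM, others 19.4 to 20.8) were high in R2b litter 4 as well. Mesenchyme markers summed to 1325 CPM in con and 1227 CPM in R2b of litter 4, against at most 436 CPM in the other libraries of that exposure; their part in these values was not tested. Dkk2 was high in R2b litter 2 (2.34 CPM, others 1.60 to 1.66), and Tcf7l1 low in R2b litter 1 (69.8 CPM, others 73.8 to 74.4).

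In the late 24-hour exposure, the library labelled con of litter 1, in which Fgfr2 goes against the label, stood above the other con libraries for Rspo3 (87.7 CPM, others 54.7 to 59.95), Notum (45.5 CPM, others 19.2 to 23.2) and Znrf3 (76.8 CPM, others 65.9 to 67.4). Wnt9b, a ligand of the surface ectoderm, reached 39.4 CPM in con litter 2, against 1.75 to 5.93 CPM in the other con and 1.17 to 4.87 CPM in the R2b libraries. Trp63 was also highest in that library, at 51.8 CPM, but con litter 3 had 35.3 CPM of Trp63 and 1.89 CPM of Wnt9b. Frzb was high in con litter 3 (38.1 CPM, others 16.1 to 18.2), where mesenchyme markers summed to 974 CPM, the highest of that exposure. Among R2b libraries Dkk3 was high in litter 4 (49.1 CPM, others 45.1 to 45.6), Nkd2 low in litter 4 (9.55 CPM, others 13.1 to 13.7) and Lgr5 low in litter 2 (13.4 CPM, others 21.0 to 22.5).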

How the results depend on the processing

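The counts of called members, 15 in the 12-hour exposure and in the early 24-hour exposure, were within 1.5 times of those values under every alternative other than the following. The replicate block gave 34 in the early 24-hour exposure (and 10 in the 12-hour exposure), and a fold change of at least 1.5 gave 8 in the early 24-hour exposure, where 6.12% of all genes passed. Leaving out a library or a litter, with or without the replicate block, gave 2 to 18 in the 12-hour exposure and 1 to 33 in the early 24-hour exposure. The number of all genes called changed as well. With the block and without litter 1 it was 267 of 14878 in the 12-hour and 4715 of 14972 in the early 24-hour exposure. All-gene counts for the other blocked leave-outs of these exposures are not given here. Without the block, leaving out litter 1 in the 12-hour exposure left 3 calls (and 2.92% of all genes). In the early 24-hour exposure leaving out litters 1, 2 and 3 without the block left 3, 1 and 7 (and 2.15%, 3.06% and 7.42% of all genes). In the late 24-hour exposure leave-outs gave 0 to 9, the 9 without litter 1 under the replicate block, and the replicate block without litters 1 and 3 gave 11. Differences of effects gave 0 or 1 call for the early 24-hour minus the 12-hour exposure, and 0 for the late minus the early 24-hour exposure.

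Of 30 called log2 fold changes, 30 were also called by DESeq2, with median-of-ratios size factors, without a filter and with robust dispersion, 25 with the replicate block, 19 in one fit of all libraries and 18 once a 1.5-fold change was required; of 29 testable at a mean CPM of at least 1, 28 were. None reversed. Values not called in the main comparison changed sign when libraries or litters were left out, with these ranges on the log2 scale in the late 24-hour exposure: Fzd1 -0.0547 to 0.158, Fzd7 -0.0762 to 0.168, Fzd9 -0.0909 to 0.178, Fzd10 -0.0361 to 0.203, Lef1 -0.0814 to 0.0298, Lgr4 -0.0556 to 0.0978, Lgr5 -0.123 to 0.267, Sfrp2 -0.348 to 0.0642, Sp5 -0.0136 to 0.656, Wnt3 -0.205 to 0.358, Wnt7a -0.619 to 0.0564 and Wnt7b -0.0752 to 0.138. In the 12-hour exposure they were Fzd7 -0.00397 to 0.209, Lgr5 -0.242 to 0.119, Lrp5 -0.116 to 0.228 and Wnt3a -1.03 to 0.382. Without litters 1 and 3 of the late 24-hour exposure, Wnt3, Wnt3a and Wnt7b were at -0.0720, -0.227 and 0.109, and with the replicate block as well at -0.136, -0.121 and 0.107. The cause of these changes was not tested.

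Few counts stand behind Wnt8b (2 to 33 per library of the early 24-hour exposure) and Wnt7a (9 to 43), and members under the filter were not tested.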

Other observations

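The genes whose level followed Axin2 most closely over the 22 libraries, after the mean of each exposure was removed, were Add1 (Pearson r 0.934), Pam (0.921), Cp (0.921), Mid2 (0.889) and Susd2 (0.887), out of 14001 genes with a mean of at least 1 CPM. None is a member. Among the members the closest were Sp5 (r 0.884, rank 7), Fzd1 (r 0.826, rank 61) and Nkd1 (r 0.800, rank 108). The libraries share con and R2b groups and litters, so these correlations are a description and carry no p.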
